A study of Arabidopsis thaliana with 6 samples.

Results

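The 38 histone genes described here encode the linker histone H1 (3 genes), the core histones H2A (4 genes), H2B (7 genes) and H4 (8 genes), the H3 forms H3.1 (5 genes) and H3.3 (3 genes), and the H2A variants H2A.X (2 genes), H2A.W (3 genes) and H2A.Z (3 genes). They were taken by gene identifier from the 37184 identifiers of the count files, and all 38 had a count in every library and were tested. RNA-seq counts were compared between 3 WT libraries and 3 libraries labelled nol12-4. Both genotypes are Arabidopsis thaliana of the Columbia-0 (Col-0) background, harvested as whole seedlings at the age of 14 days from sucrose-containing MS plates under long days, without a further treatment. The nol12-4 plants carry a GABI-Kat T-DNA insertion in AtNOL12, the gene of a nucleolar protein related to the yeast exoribonuclease Rrp17, and they represent 1 mutant line. The libraries are described as biological replicates, and the p-values measure the spread between them.

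Histones package DNA into nucleosomes, in which H3, H4, H2A and H2B form the core and H1 binds the linker. H3.1 and most H4 are made and deposited when DNA is copied in S phase, H3.1 with the help of the chaperone CAF-1, and are called replication-coupled. The replacement variants are made through the cell cycle: H3.3 is placed by HIRA and ATRX over transcribed genes, H2A.Z is exchanged by the SWR1 complex near transcription starts, and H2A.X is the form phosphorylated at DNA breaks. H2A.W is a plant form found over silent heterochromatin. In seedlings, most S phase cells lie in the meristems of root and shoot and in young leaves.

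H3.1 and most H4 genes had higher estimates in nol12-4, the H3.3 genes did not, and of the H2A.Z genes HTA8 and HTA11 did. All 5 H3.1 genes lay above all WT libraries in all nol12-4 libraries, as 14.5% of all genes tested did, and their summed level was 1.87 times that of WT. The largest single decreases among the 38 were those of the H2B gene AT2G28720, 2.15 times lower, and of HIS1-3, the gene of a drought-inducible H1, 3.69 times lower. Of these, only AT2G28720 passed the main test, the edgeR quasi-likelihood test with adjustment over 21705 genes.

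The files name genes by identifier only, and gene models and sequences were read from RefSeq (TAIR10.1), which held all 38. Symbols of the 38 follow RefSeq, except that HTA1, HTA3 and HTA5 are listed there as RAT5, GAMMA-H2AX and H2AXA. All 8 H4 genes encode the same protein of 103 residues. The 5 H3.1 genes encode 1 protein of 136 residues and the 3 H3.3 genes another of the same length. Both are 97.1% identical and differ at 4 positions, 31, 41, 87 and 90, counted without the start methionine. The 3 H2A.Z proteins are 79.4 to 90.4% identical to each other and 50.3 to 53.9% identical to those of the H2A genes. Each H4, H3.1 and H2B gene has 1 coding exon, while all H3.3, H2A, H2A.X, H2A.W, H2A.Z and H1 genes have introns in the coding part. The classes named replication-coupled and replacement therefore also differ in gene structure.

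The octamer CGCGGATC, an element known from plant histone promoters, was searched on both strands from 250 bases before to 50 bases after each annotated start. It occurred in 10 of the 38 histone genes (26.3%) against 40 of 27443 protein-coding genes (0.146%), a set that includes these 10. The holders were 3 of 5 H3.1 genes, 2 of 8 H4 genes, 1 of 3 H3.3 genes, 2 of 4 H2A genes (HTA10 and HTA13), 1 of 3 H2A.W genes (HTA6) and 1 of 3 H1 genes (AT1G06760), and no H2A.X, H2A.Z or H2B gene had it. The following windows of 60 bases before the start show the octamer, in capitals, in the 3 H3.1 holders, in 1 H4 gene and in the H3.3 and H2A.W holders, so that the element can be compared across classes. They are read 5′ to 3′ on the strand of the gene, so the octamer appears in the reverse direction (GATCCGCG) in AT4G40040. The windows lie at chr5:3271044-3271103 (minus strand), chr1:2972335-2972394 (minus), chr5:26120674-26120733 (minus), chr5:24051377-24051436 (plus), chr4:18558946-18559005 (minus) and chr5:24116303-24116362 (minus), in the order printed.
AT5G10400 (H3.1): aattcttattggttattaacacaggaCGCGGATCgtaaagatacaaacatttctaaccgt
AT1G09200 (H3.1): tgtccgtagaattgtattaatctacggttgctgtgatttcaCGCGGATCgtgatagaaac
AT5G65360 (H3.1): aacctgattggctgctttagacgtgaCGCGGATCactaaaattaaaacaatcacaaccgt
AT5G59690 (H4): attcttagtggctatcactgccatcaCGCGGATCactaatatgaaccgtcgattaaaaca
AT4G40040 (H3.3): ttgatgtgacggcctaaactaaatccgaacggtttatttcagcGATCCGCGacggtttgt
AT5G59870 (HTA6, H2A.W): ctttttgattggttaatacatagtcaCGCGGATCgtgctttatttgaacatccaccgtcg

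The hexamer ACGTCA, a further element of plant histone promoters, occurred in 11 histone genes (28.9%) against 9.19% of all promoters, and was present in all 7 H2B genes. An E2F site, any of TTTCCCGC, TTTGGCGC, TTTGCCGC and TTTCGCGC, occurred in 3 histone genes (7.89%) against 1.76% of all promoters. E2F factors control genes of S phase. The holders were the H4 genes AT3G45930 and AT3G46320 and the H2B gene HTB2. The 40 bases that hold the site, in capitals, at chr3:16883066-16883105 (plus strand) and chr3:17020639-17020678 (minus strand) were the same in both H4 genes, and 247 of the 250 bases before the start (98.8%) were the same when compared without gaps. These 2 genes are shown because they had the highest log2 fold changes among the H4 genes and share this stretch.
AT3G45930 (H4): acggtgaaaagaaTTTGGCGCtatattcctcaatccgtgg
AT3G46320 (H4): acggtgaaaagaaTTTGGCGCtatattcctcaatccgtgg

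The counts on genes were 56627497 to 75001252 per library, of which organelle genes took 47.05 to 56.58%. The histone genes took 0.0965 to 0.140% of the counts, and the counts of a single histone gene ranged from 123 to 12746, so that none lay near the floor of 3 counts (0.0400 to 0.0530 CPM). WT replicate 3 stood apart from the other WT libraries and was the highest WT library for 32 of the 38 histone genes. Compared over genes, the chi-square per degree of freedom was 181 and 193 between WT replicate 3 and WT replicates 1 and 2. It was 27.6 between WT replicates 1 and 2, and 115 to 159 among the nol12-4 libraries, which thus also differed from each other. The AtNOL12 counts were 9.34, 9.62 and 13.3 CPM in WT and 16.1, 13.2 and 27.7 CPM in nol12-4. The estimate was thus higher in nol12-4 (log2 fold change 0.82 ± 0.30, SE, edgeR adjusted p 0.191). These counts do not check the labels, since they cover the whole gene and not the insertion alone. The study used a northern blot for AtNOL12 mRNA to check for a knockdown. It chose nol12-4 because another line, nol12-3, was similar to WT. The counts here show no lower level in nol12-4 than in WT, and the reason was not tested.

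Levels are given as CPM, the counts of a gene scaled to a common library total after TMM normalization, and as CPM per kb of exon where genes are compared. In WT the H3.3 genes were at 74.7 to 99.6 CPM per kb and the H3.1 genes at 4.77 to 29.6 CPM per kb, so that no H3.1 gene reached the level of an H3.3 gene. The H4 genes lay between 7.16 and 27.3 CPM per kb. Among the H2A.Z genes, HTA9 stood at 77.1 CPM per kb, against 2.43 for HTA8 and 5.38 for HTA11. H2A.X genes were at 16.0 and 26.0 CPM per kb. The highest H2B gene, HTB9, reached 94.8 CPM per kb, and the lowest histone gene of all was HTA12 of H2A.W at 1.43 CPM per kb.

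**Figure D1:**
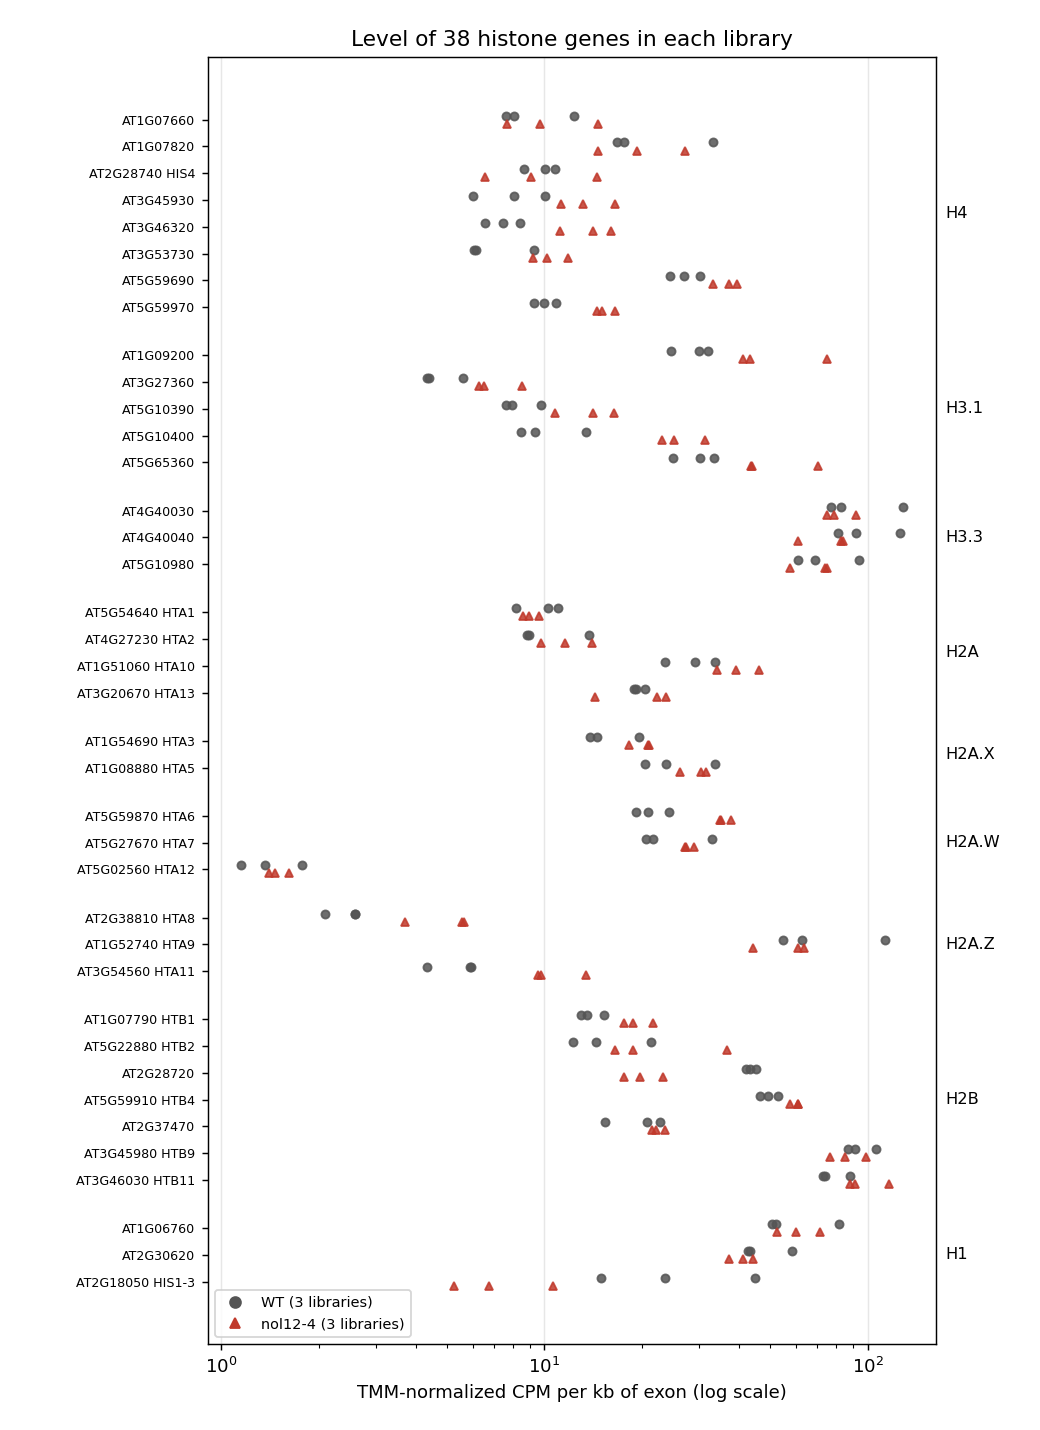
Level of each of the 38 histone genes in each library (TMM-normalized CPM per kb of exon, log scale), with WT as circles and nol12-4 as triangles, grouped by class. The 5 H3.1 genes have all triangles to the right of all circles, while circles and triangles are mixed in the 3 H3.3 genes, and AT2G28720 and HIS1-3 have all triangles to the left.

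Across all 38 genes, 27 estimates lay above 0 and 11 below, with a median log2 fold change of 0.24 against -0.0091 for all genes tested. With edgeR, 0 of the 38 were called higher (0.226% of all genes were) and 1 was called lower (0.0691% of all genes). At an unadjusted edgeR p under 0.05, 15 were higher (12.1% of all genes) and 2 lower (7.91% of all genes). DESeq2, the study's own test of genotype, called 9 higher (7.05% of all genes) and 2 lower (3.69% of all genes). All 3 nol12-4 libraries exceeded all WT libraries in 16 genes (14.5% of all genes) and fell short of all WT libraries in 2 (11.6% of all genes). The share of histone genes with a higher value was above the background on each of these measures except the edgeR call, and the share with a lower value was below the background at the unadjusted p and in the libraries that did not overlap. Without WT replicate 3 the median of the 38 was 0.41 and edgeR called 1 gene higher and 1 lower. Since these are whole seedlings, a change in the number of cells of a type and a change in RNA per cell cannot be told apart.

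The H3.1 genes all had estimates above 0, from 0.57 to 1.35. Their summed level was 53.4, 62.0 and 69.5 CPM in WT (61.6 ± 8.07, SD, n = 3) and 101, 150 and 94.3 CPM in nol12-4 (115 ± 30.3, SD, n = 3), and the groups did not overlap. AT5G10400 had the largest estimate, with 7.37, 6.67 and 10.6 CPM in WT and 19.8, 24.6 and 18.2 CPM in nol12-4. Its log2 fold change was 1.35 ± 0.22 (SE), with an adjusted p of 0.0617 by edgeR and 2.84e-05 by DESeq2. Every nol12-4 library was thus above every WT library, by a difference that passed DESeq2 and not edgeR.

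The most abundant H3.1 genes, AT1G09200 and AT5G65360, had nearly the same values in each library. AT1G09200 was at 18.9, 23.0 and 24.4 CPM in WT and 33.0, 57.3 and 31.5 CPM in nol12-4 (log2 fold change 0.88 ± 0.25, SE). AT5G65360 was at 18.1, 21.8 and 24.3 CPM in WT and 31.4, 50.9 and 31.8 CPM in nol12-4 (0.83 ± 0.23, SE). In both, nol12-4 replicate 2 stood highest, and without it the estimates were 0.55 for AT1G09200 and 0.56 for AT5G65360. DESeq2 called both, with adjusted p of 0.0340 and 0.0279, against 0.131 and 0.117 by edgeR. They lie on different chromosomes, and both hold the octamer shown above.

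AT5G10390 and AT3G27360 are less abundant H3.1 genes without the octamer in the window searched. AT5G10390 was at 5.37, 6.86 and 5.58 CPM in WT and 9.96, 11.5 and 7.58 CPM in nol12-4 (log2 fold change 0.71 ± 0.20, SE, DESeq2 adjusted p 0.0417, edgeR adjusted p 0.130). AT3G27360 was at 3.65, 3.61 and 4.67 CPM in WT and 7.08, 5.40 and 5.23 CPM in nol12-4 (0.57 ± 0.21, SE, DESeq2 adjusted p 0.122, edgeR adjusted p 0.194). Their groups do not overlap either, though the lowest nol12-4 library of AT3G27360 is close to the highest of WT. AT5G10390 lies 577 bases from AT5G10400 on the same strand, with no protein-coding gene between them. AT3G27360 overlaps SDH2-1 (AT3G27380) by 328 bases on the same strand, so reads from the shared part cannot be assigned. All 5 H3.1 genes had an unadjusted edgeR p under 0.05 (12.1% of all genes), and 4 were called by DESeq2 (7.05% of all genes).

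The H4 genes were split. 7 of 8 estimates lay above 0, with a median log2 fold change of 0.48, DESeq2 called 2 of the 8 higher (7.05% of all genes), and 4 had all nol12-4 libraries above all WT libraries (14.5% of all genes). AT3G46320 was at 4.23, 5.41 and 4.79 CPM in WT and 10.3, 9.11 and 7.20 CPM in nol12-4 (log2 fold change 0.89 ± 0.20, SE, DESeq2 adjusted p 0.00374, edgeR adjusted p 0.0834). AT5G59970 was at 8.93, 9.75 and 8.35 CPM in WT and 14.8, 13.1 and 13.5 CPM in nol12-4 (0.62 ± 0.14, SE, DESeq2 adjusted p 0.00391, edgeR adjusted p 0.0862). These were the H4 genes that DESeq2 called, and their groups were well separated.

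Among the other H4 genes, AT3G45930, which shares its promoter sequence with AT3G46320, was at 4.18, 5.57 and 6.98 CPM in WT and 11.5, 9.14 and 7.79 CPM in nol12-4 (log2 fold change 0.76 ± 0.24, SE, edgeR adjusted p 0.15). AT5G59690, with the octamer, was at 18.3, 20.2 and 22.6 CPM in WT and 24.8, 29.4 and 27.7 CPM in nol12-4 (0.42 ± 0.14, SE, edgeR adjusted p 0.167). Neither was called, though in both every nol12-4 library was above every WT library. AT3G53730 was at 6.86, 6.93 and 10.5 CPM in WT and 13.4, 10.4 and 11.5 CPM in nol12-4, so that its groups overlap slightly.

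The remaining H4 genes showed no separation. AT1G07660, which also holds the octamer, was at 5.80, 5.50 and 8.89 CPM in WT and 5.54, 10.6 and 7.01 CPM in nol12-4. AT1G07820, among the most abundant H4 genes, was at 17.2, 16.4 and 32.4 CPM in WT and 14.3, 26.6 and 18.9 CPM in nol12-4. HIS4 (AT2G28740) was at 6.18, 7.17 and 7.70 CPM in WT and 6.51, 10.4 and 4.68 CPM in nol12-4. Their log2 fold changes were 0.20 ± 0.30, -0.14 ± 0.33 and 0.03 ± 0.29 (SE), and each turned its sign when a single library was left out. Since the H4 genes encode 1 protein, parts of their sequence recur. Of the 100-base words of AT1G07820, AT1G07660, AT3G45930 and AT3G46320, 4.32 to 12.1% were found at a further place in the genome. Reads aligned to more than 1 place were not counted, so these genes may be undercounted. No 100-base word of the other 34 histone genes was found elsewhere. Of the 50-base words, 8.48% of those of AT5G59690 and 6.94% of those of AT5G59970 were, and up to 30.8% in an H4 gene.

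The H3.3 genes, the replacement counterpart of H3.1, had estimates below 0, and none was called by either tool. AT4G40040 was at 139, 122 and 190 CPM in WT and 92.2, 125 and 127 CPM in nol12-4 (log2 fold change -0.39 ± 0.22, SE, edgeR adjusted p 0.372). AT4G40030 was at 109, 102 and 170 CPM in WT and 104, 122 and 99.5 CPM in nol12-4 (-0.23 ± 0.23, SE, edgeR adjusted p 0.611). AT5G10980 was at 56.1, 50 and 77.2 CPM in WT and 47.1, 60.4 and 61.4 CPM in nol12-4 (-0.12 ± 0.20, SE, edgeR adjusted p 0.779). In each of them the groups overlap and WT replicate 3 is the highest library. Without that library the estimates of AT4G40030 and AT5G10980 were 0.04 and 0.09, that of AT4G40040 was -0.19, and the class median turned from -0.23 to 0.04. AT4G40030 and AT4G40040 are neighbours, 42 bases apart on the same strand.

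A ratio of 2 sums within a library does not depend on the scaling between libraries. The ratio of summed H3.1 to summed H3.3 CPM was 0.176, 0.226 and 0.159 in WT (0.187 ± 0.0351, SD, n = 3) and 0.416, 0.487 and 0.327 in nol12-4 (0.410 ± 0.0801, SD, n = 3), without overlap. Per kb of exon, H3.1 made up 23.7 ± 3.37% of H3.1 and H3.3 together in WT (SD, n = 3) and 40 ± 4.86% in nol12-4. The ratio of summed H4 to summed H3.3 CPM was 0.236, 0.281 and 0.233 in WT and 0.416, 0.386 and 0.342 in nol12-4, also without overlap, whereas the H4 sums themselves overlapped (71.7, 76.9 and 102 CPM in WT, 101, 119 and 98.3 CPM in nol12-4). WT replicate 3 had the highest H4, H3.1 and H3.3 sums of WT and the lowest ratios. All 38 histone genes together summed to 1036, 1009 and 1413 CPM in WT and 1110, 1274 and 1136 CPM in nol12-4, so the total differed by less than the spread of the WT libraries.

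**Figure D2:**
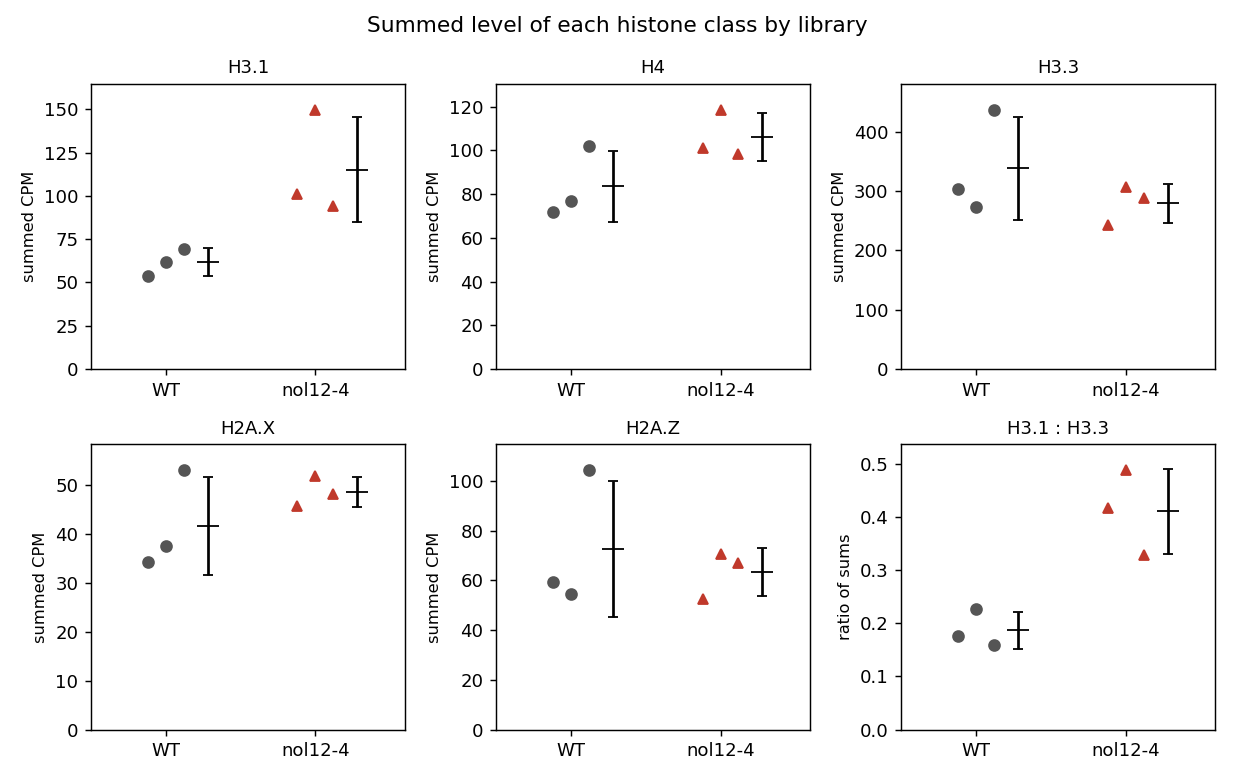
Summed CPM of the H3.1, H4, H3.3, H2A.X and H2A.Z genes and the ratio of the H3.1 to the H3.3 sum in each library, with the mean and SD (n = 3) beside the points. The H3.1 sums and the ratio do not overlap between the genotypes, while the other 4 sums do, with WT replicate 3 the highest WT library in each.

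Of the 3 H2A.Z genes, HTA11 and HTA8 were called higher by DESeq2 (7.05% of all genes), and HTA9 was called by neither tool. HTA11 was at 4.61, 6.23 and 6.28 CPM in WT and 10.3, 14.3 and 10.1 CPM in nol12-4 (log2 fold change 1.02 ± 0.21, SE, DESeq2 adjusted p 0.00166, edgeR adjusted p 0.0746). HTA8 was at 1.85, 2.29 and 2.30 CPM in WT and 4.97, 4.91 and 3.27 CPM in nol12-4 (1.03 ± 0.24, SE, DESeq2 adjusted p 0.00467, edgeR adjusted p 0.0912). In both, every nol12-4 library was above every WT library, and the mean was 2.03 and 2.04 times that of WT. HTA9, the most abundant, was at 52.8, 46.1 and 95.7 CPM in WT and 37.3, 51.3 and 53.6 CPM in nol12-4 (-0.45 ± 0.30, SE, edgeR adjusted p 0.431). Its groups overlap, and without WT replicate 3 the estimate was -0.06. HTA9 made up 90.1 ± 3.24% of H2A.Z in WT and 77.8 ± 4.48% in nol12-4 (CPM per kb, SD, n = 3). The class sum was 59.3, 54.7 and 104 CPM in WT and 52.6, 70.5 and 67.0 CPM in nol12-4 and follows HTA9.

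The H2A.X genes had small positive estimates that were not called. HTA3 was at 11.6, 11.1 and 15.7 CPM in WT and 16.7, 16.8 and 14.6 CPM in nol12-4 (log2 fold change 0.32 ± 0.17, SE, edgeR adjusted p 0.348). HTA5 was at 22.6, 26.3 and 37.2 CPM in WT and 28.9, 34.9 and 33.6 CPM in nol12-4 (0.18 ± 0.20, SE, edgeR adjusted p 0.661). In both the groups overlap through WT replicate 3, without which the estimates were 0.50 for HTA3 and 0.41 for HTA5. The HTA5 estimate was 0.0291 without WT replicate 1 and 0.12 without WT replicate 2.

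Taken as sides of the comparison, the 13 replication-coupled genes (H3.1 and H4) had 12 estimates above 0 and 1 below, with a median log2 fold change of 0.62. DESeq2 called 6 of them higher (7.05% of all genes). The 8 replacement genes (H3.3, H2A.X and H2A.Z) had 4 estimates above and 4 below 0, with a median of 0.03. DESeq2 called 2 of them higher (7.05% of all genes), the H2A.Z genes HTA8 and HTA11. Of all 21705 genes tested, 10645 had estimates above 0 and 11060 below. Without WT replicate 3 the replacement genes had 6 estimates above and 2 below 0, with a median of 0.25, and the replication-coupled genes 13 above and 0 below, with a median of 0.70. With each library left out in turn, the replacement median ran from -0.07 to 0.25 and the replication-coupled median from 0.57 to 0.70. Of the 38 genes, HTA8 and HTA11 had the highest estimates after AT5G10400. The difference between the sides was not tested.

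**Figure D3:**
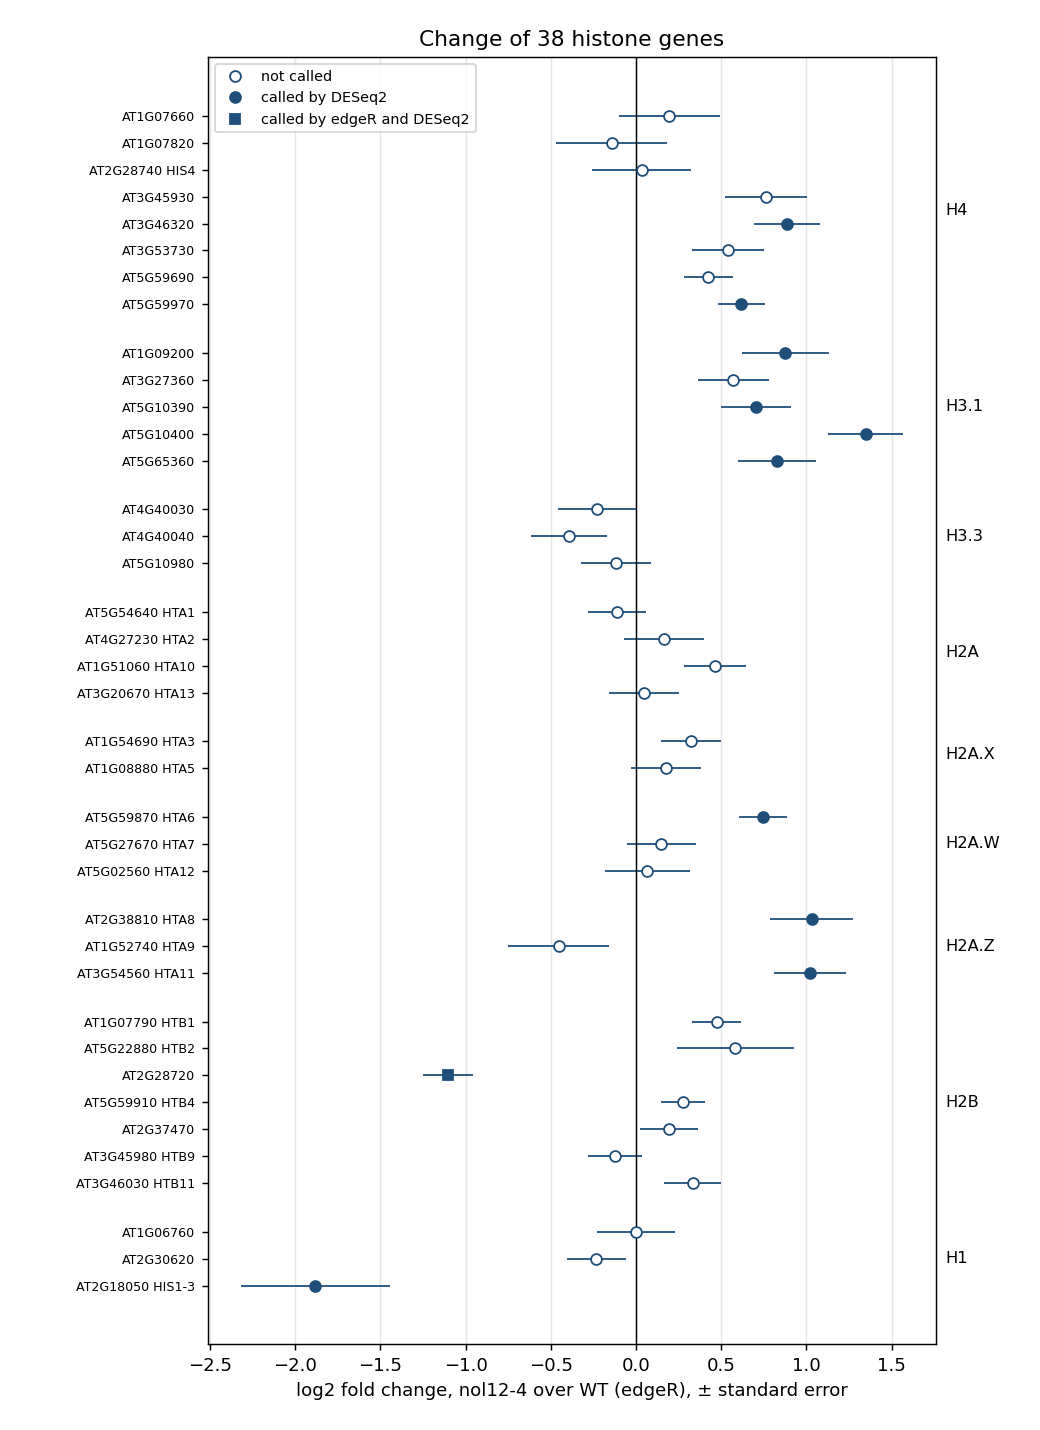
Log2 fold change of each histone gene, nol12-4 over WT, from edgeR with its standard error. Filled symbols are genes called by DESeq2, the square is AT2G28720, the gene among the 38 that edgeR called as well, and the 3 H3.3 genes lie at -0.39 to -0.12 while the 5 H3.1 genes lie at 0.57 to 1.35.

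Of the other H2A genes, HTA6 of H2A.W stood out. It was at 16.3, 19.0 and 14.9 CPM in WT and 29.6, 27.3 and 27.4 CPM in nol12-4 (log2 fold change 0.75 ± 0.14, SE, DESeq2 adjusted p 0.000406, edgeR adjusted p 0.0678). The nol12-4 libraries were close to each other and all above WT. Its relatives HTA7 and HTA12 had estimates of 0.15 and 0.07 with overlapping groups. Among the H2A genes, HTA10 had the highest estimate, with 24.5, 28.4 and 19.9 CPM in WT and 32.9, 38.6 and 28.7 CPM in nol12-4 (0.46 ± 0.18, SE, edgeR adjusted p 0.219). HTA1, the gene known from its role in Agrobacterium transformation, had the lowest at -0.11. HTA2 and HTA13 lay at 0.16 and 0.05, and none of the H2A genes was called by either tool.

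The H2B genes held the only edgeR call among the 38 genes. AT2G28720 was at 43.3, 42.0 and 45.2 CPM in WT and fell to 19.8, 17.6 and 23.3 CPM in nol12-4 (log2 fold change -1.10 ± 0.15, SE, edgeR adjusted p 0.0418, DESeq2 adjusted p 3.00e-08). The means were 43.5 ± 1.63 and 20.2 ± 2.87 CPM (SD, n = 3). It made up 13.8 ± 0.848% of the H2B level in WT and 6.12 ± 1.09% in nol12-4 (CPM per kb). The edgeR call was lost when either replicate 1 or either replicate 2, of WT or of nol12-4, was left out (adjusted p 0.115 to 0.231), settings in which edgeR called 0 genes of any kind and 2797 to 3721 had an unadjusted p under 0.05, while the estimate stayed between -1.01 and -1.13. HIS4 lies 1536 bases from AT2G28720 on the opposite strand, with 1 protein-coding gene between, and its estimate was 0.03.

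The other 6 H2B genes lay between -0.12 (HTB9) and 0.58 (HTB2). HTB1 was at 11.1, 11.6 and 13.0 CPM in WT and 15.1, 18.4 and 16.0 CPM in nol12-4 (log2 fold change 0.47 ± 0.15, SE, edgeR adjusted p 0.143). HTB4 was at 63.2, 59.8 and 67.8 CPM in WT and 78.5, 78.5 and 74.2 CPM in nol12-4 (0.28 ± 0.13, SE, edgeR adjusted p 0.284). In both, the nol12-4 libraries were all above WT, by amounts that neither tool called. HTB11 reached 86.9, 68.2 and 66.2 CPM in nol12-4 against 54.5, 55.2 and 66.1 CPM in WT, the last values being nearly equal. HTB2 was at 12.2, 10.4 and 18.1 CPM in WT and 14.0, 31 and 15.9 CPM in nol12-4, with nol12-4 replicate 2 the highest (log2 fold change 0.58 ± 0.35, SE, and 0.14 without that library), and AT2G37470 had an estimate of 0.19. AT2G28720 shares the hexamer with all of them.

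Of the H1 genes, HIS1-3 (AT2G18050) encodes a short H1 that in Arabidopsis is induced by drought and low light. It was at 22.9, 14.5 and 43.3 CPM in WT and 6.51, 5.08 and 10.3 CPM in nol12-4 (log2 fold change -1.88 ± 0.44, SE, DESeq2 adjusted p 0.000655, edgeR adjusted p 0.0896). All nol12-4 libraries were below all WT libraries, although the WT libraries themselves ranged widely. It made up 19.3 ± 5.26% of the H1 level in WT and 6.94 ± 2.71% in nol12-4 (CPM per kb, SD, n = 3). Without WT replicate 3 its estimate was -1.36. The main H1 genes AT1G06760 and AT2G30620 had estimates of -0.00056 and -0.23 and overlapping groups.

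Genes with and without the octamer overlapped in their estimates. The 10 genes with it had a median log2 fold change of 0.44 (range -0.39 to 1.35), 8 above 0 and 2 below, and the 28 without it had a median of 0.19 (range -1.88 to 1.03), 19 above and 9 below. HTA8 and HTA11, with estimates above 1, lacked it, and AT4G40040, with the lowest H3.3 estimate, held it. The 3 genes with an E2F site lay at 0.58 to 0.89, and DESeq2 called 1 of them, AT3G46320 (7.05% of all genes were called higher). AT3G45930 and AT3G46320 share nearly all of their upstream bases, and the groups of HTB2 overlap.

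Genes of related processes were read from lists of the same fit. The 16 S phase genes all had estimates above 0, with a median log2 fold change of 0.57. edgeR called 0 of them (0.226% of all genes were called higher), and 10 had an unadjusted p under 0.05 (12.1% of all genes were higher by that measure). DESeq2 called 6 (7.05% of all genes): MCM2, MCM4 and MCM5 of the replicative helicase (0.60, 0.68 and 0.81), the sliding clamp gene PCNA1 (0.98), TSO2 of the ribonucleotide reductase (1.06) and ORC1B of the origin recognition complex (0.96). 12 of the 16 were above WT in all nol12-4 libraries (14.5% of all genes). An E2F site lies in 7 of the 16 S phase promoters (43.8%, against 1.76% of all promoters), in 0 of 11 mitosis promoters and in 0 of 5 H3.1 promoters. The 11 mitosis genes had estimates above 0 as well, with a median of 1.06. edgeR called 1 (0.226% of all genes), KN (AT1G08560), the syntaxin of the cell plate, which rose by 1.09 ± 0.14 (SE, adjusted p 0.0341). DESeq2 called 9 (7.05% of all genes), among them CYCB1;1 (1.21) and CDKB1;1 (1.26). The H3.1 median beside these was 0.83.

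By library, the median differences from the mean of WT were 0.75, 1.26 and 0.52 for H3.1, 0.68, 0.64 and 0.34 for S phase genes and 1.15, 1.2 and 0.92 for mitosis genes in nol12-4 replicates 1, 2 and 3, on the log2 scale. nol12-4 replicate 3 was the lowest of the nol12-4 libraries for each. H3.3 was at -0.35, -0.02 and -0.22 in the same libraries. With 6 libraries in 2 groups, no correlation between these lists was computed. The 6 E2F pathway regulators had a median of -0.03 with 0 called by edgeR, 0 by DESeq2 and 0 at an unadjusted edgeR p under 0.05, from -0.34 (E2F1) to 0.20 (E2F3). The shares of all genes higher and lower were 0.226% and 0.0691% by edgeR and 7.05% and 3.69% by DESeq2. At an unadjusted edgeR p under 0.05 they were 12.1% and 7.91%.

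**Figure D4:**
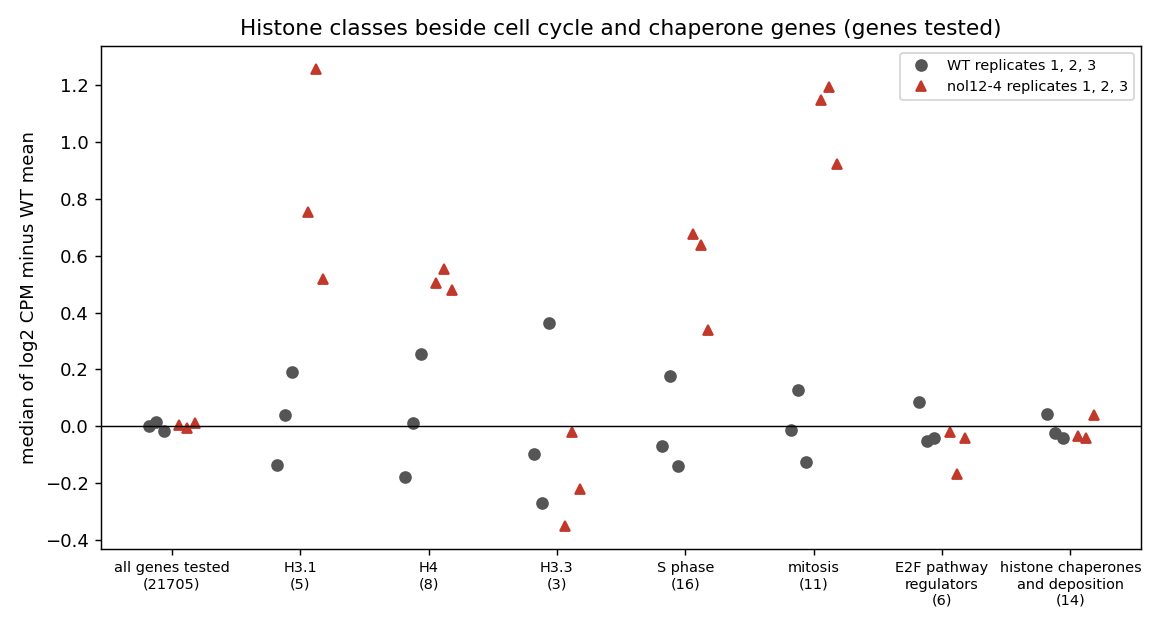
Median of log2 CPM minus the WT mean in each library, for all genes tested, for H3.1, H4 and H3.3, and for lists of S phase, mitosis, E2F pathway and histone chaperone genes, with the number of genes in parentheses. The nol12-4 libraries lie above all WT libraries for H3.1, H4, S phase and mitosis genes, and overlap with WT for H3.3, E2F pathway and chaperone genes.

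Genes for the proteins that carry and place histones were read in the same way. Of 14 chaperone genes 6 had estimates above 0 and 8 below, with a median log2 fold change of -0.04. Neither edgeR nor DESeq2 called one (1 was higher at an unadjusted edgeR p under 0.05, as were 12.1% of all genes). The highest was FAS1, the large subunit of CAF-1, which places H3.1 with H4, at 7.97, 8.96 and 10.9 CPM in WT and 12.5, 12.8 and 11.4 CPM in nol12-4 (0.40 ± 0.16, SE, edgeR adjusted p 0.230). The lowest was NAP1;2, a chaperone of H2A and H2B, at -0.32. The H3.3 chaperone genes HIRA and ATRX, listed here because they place the H3.3 proteins, lay at -0.12 and -0.15. Of 9 genes for histone variant exchange and for reading or writing on H3.1, 4 had estimates above 0 and 5 below. The list includes DDM1 (0.70, DESeq2 adjusted p 0.0665), which neither tool called. DESeq2 called 1 of the 9 higher (7.05% of all genes), TSK, whose protein reads newly placed H3.1. TSK was at 2.52, 3.3 and 2.77 CPM in WT and 6.21, 5.95 and 3.70 CPM in nol12-4 (0.88 ± 0.26, SE, DESeq2 adjusted p 0.0296, edgeR adjusted p 0.130). ATXR6, which methylates H3.1, had the highest estimate (0.98) and PIE1, the ATPase of the SWR1 complex, the lowest (-0.32).

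Of 11 further histone genes outside the 38, 5 passed the filter on low counts. MGH3, a pollen form of H3, had 0 to 0.0149 CPM, and HTA4 had no count in any library. AT3G53650, annotated as a histone of the H2B class, was at 1.62, 1.51 and 1.28 CPM in WT and rose to 4.82, 4.22 and 4.63 CPM in nol12-4 (log2 fold change 1.63 ± 0.21, SE, edgeR adjusted p 0.0372, DESeq2 adjusted p 1.05e-10). It is 3.1 times higher, opposite in direction to AT2G28720, another H2B gene. HTR12, the centromeric H3, was at 0.859, 1.47 and 0.805 CPM in WT and 2.26, 2.39 and 1.47 CPM in nol12-4 (0.96 ± 0.35, SE, edgeR adjusted p 0.193), and HTR11 had the lowest estimate, -0.39.

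Markers of organs were read as a check of the tissue. All 7 leaf markers had estimates above 0 (median log2 fold change 0.62), with a summed level of 6824 to 11150 CPM in WT and 10963 to 19026 CPM in nol12-4. DESeq2 called RBCS1A and RCA higher (7.05% of all genes). Some leaf markers varied widely within a genotype. LHCB2.1 was at 23.8, 31.4 and 244 CPM in WT and 858, 1437 and 152 CPM in nol12-4, and CAB1 at 1359, 1542 and 4662 CPM in WT. Of 10 root markers 9 had estimates above 0 (median 0.57), with sums of 679 to 950 CPM in WT and 1052 to 1140 CPM in nol12-4. DESeq2 called EXPA7 higher (7.05% of all genes). Of 7 shoot meristem markers 5 were tested, 4 with estimates above 0 and 1 below, CUC2 at -0.49 (median 0.69), and neither tool called one. STM was at 1.31, 1.57 and 2.25 CPM in WT and 2.49, 3.20 and 2.61 CPM in nol12-4 (0.69 ± 0.28, SE, edgeR adjusted p 0.229). The sums of the shoot meristem markers were 4.38 to 6.58 CPM in WT and 5.74 to 9.25 CPM in nol12-4. CUC1, CUC2 and CUC3 had only 6 to 36 counts per library. The defining genes of the shoot stem cell niche were at or near 0: WUS had no count in any library, and CLV3 had at most 0.0815 CPM. Of 6 flower markers 2 were tested, both with estimates below 0 (median -0.53), and neither tool called one. The sums of the list were 4.49 to 7.19 CPM in WT and 4.17 to 6.88 CPM in nol12-4. The part of organ proportions in the histone values was not tested.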

How the data were processed

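The authors extracted total RNA, depleted rRNA, sequenced stranded paired-end libraries, aligned reads with HISAT2 (2.0.4) to TAIR10 and counted them per gene with HTSeq (0.6.0), per the labels' processing notes and the methods of the study. The deposited values are raw counts per gene, without normalization. Summary lines (20.6 to 25.0% of a library, with 10.3 to 12.1% aligned to more than 1 place) entered neither the library sizes nor the tests. Genotypes were compared in R (4.3.3) with edgeR (4.0.16): TMM, filterByExpr, robust glmQLFit, the quasi-likelihood F test, two-sided, genotype as the only term, and Benjamini-Hochberg adjustment over 21705 genes at 0.05 (prior degrees of freedom 3.37 to 3.41). DESeq2 (1.42.0), limma-voom (3.58.1), other scalings and filters, a replicate block and each library left out were alternatives. The procedure was tested on simulated data. Floors cover counting error only, and depth was 56627497 to 75001252 counts per library.

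Levels per kb used the exon length of RefSeq (TAIR10.1). Exact words of 50 and 100 bases were counted over the genome for near-identical copies, and motifs were read from 250 bases before to 50 after each start. The 38 genes, the lists and the motifs were chosen with earlier results of these data known. All genes of H4, H3.1, H3.3, H2A.X and H2A.Z were named. Of the other classes, those whose libraries did not overlap, those with an unadjusted p under 0.05 and the extremes were named, and of the related lists the called genes or the extremes. The H3.3 chaperones, the stem cell markers and genes with estimates given for completeness were named after their values were seen.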

Additional observations from a re-analysis of the deposited data

How the results depend on the processing

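Of 570 estimates for single histone genes over the alternatives, 524 kept direction and side of the threshold, 22 newly passed it, 5 (all of AT2G28720) no longer did and 19 turned sign. The H3.1 genes had 5 of 5 estimates above 0 under every alternative run, and H4 5 to 8 of 8. edgeR called 49 genes higher and 15 lower, against 1528 and 800 by DESeq2, 376 and 51 with library size alone, 142 and 41 with no filter on low counts, and 0 to 1038 and 0 to 601 with 1 library left out. Histone genes called higher were 0 in edgeR, 9 by DESeq2, 3 with library size alone, 1 with no filter and 0 to 6 with 1 library left out (6 without nol12-4 replicate 3). Over all genes, 376 of 21705 were called higher with library size alone and 142 of 27290 with no filter. Without nol12-4 replicate 3, 1038 of 22033 genes were called higher and 601 lower. Histone genes called lower were 1 in edgeR, 2 by DESeq2 and 0 to 2 with 1 library left out (2 without nol12-4 replicate 3). Library size alone moved the median of all genes from -0.0091 to 0.0922. The causes were not tested.

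The replicate numbers did not pair the libraries (correlations of same-numbered deviations 0.164, -0.113 and 0.0349). With the number as a replicate block, edgeR called 1 gene higher and 0 lower, 0 histone genes in either direction, and AT2G28720 lay at -1.11 (adjusted p 0.0713).

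With 1 library left out, the median ran from 0.18 to 0.41 for all histone genes, from -0.37 to 0.0401 for H3.3, from -0.0071 to 0.21 for H2A, from 0.0317 to 0.40 for H2A.W, from 0.14 to 0.45 for H2A.X, from -0.31 to -0.0724 for H1 and from 0.57 (without nol12-4 replicate 2) to 0.95 for H3.1. Single genes that turned sign ran from -0.10 to 0.45 (AT1G07660), -0.41 to 0.25 (AT1G07820), -0.33 to 0.26 (HIS4, AT2G28740), -0.37 to 0.0401 (AT4G40030), -0.25 to 0.0853 (AT5G10980), -0.0954 to 0.24 (HTA13, AT3G20670), -0.0696 to 0.25 (HTA12, AT5G02560) and -0.12 to 0.26 (AT1G06760). HIS4 was also at -0.0659 with limma-voom and -0.0339 with the block, and AT1G06760 at 0.0269 with limma-voom, 0.0963 with library size alone, 0.00085 with no filter and 0.0240 with the block. Each histone gene had at least 123 counts in every library.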
